A study of Mus musculus with 43 samples.

Results

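The response of Apc-deficient mouse colon tumoroids to 8 µM regorafenib was measured by bulk RNA sequencing of 3 organoid lines, each cultured with the drug (R8) and with vehicle (Ve). The lines F11, M3 and M14 were each derived from 1 mouse, and F11 comes from a female and the others from males. With 1 library per line and treatment, the spread between lines holds differences of mouse, culture and library together. The variance was estimated over all 12 tumoroid libraries, while the comparison itself is between 6 of the 43 libraries of the series. These are 1 per line and treatment, paired by line. Genes were taken into the comparison when at least 2 of these 6 libraries held 200 CP20M or more. CP20M is the number of reads of a gene scaled to 20000000 reads per library, and it was used as a level within a gene and not between genes. Of the 52636 genes listed, 10681 met this rule, of which 8990 did so in all 6 libraries and 406 in just 2, and 622 genes reached the level in 1 library only.

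The mice carried floxed Apc alleles and a tamoxifen-inducible Cre recombinase driven by the villin promoter (Vil-cre/ERT2/Apcflox/flox), which acts in the intestinal epithelium, and received tamoxifen before the tissue was taken. Tumoroids were replated in Matrigel and cultured for 6 days with vehicle (0.5% DMSO), 4 µM regorafenib (R4), 8 µM regorafenib or 1 µM 5-fluorouracil (5-FU), in a medium with EGF, Noggin, R-spondin 1 and Wnt3a. The same treatments were given to 3 colonoid lines of wild-type Apc (Apcwt/wt) from mice with the same Cre. Tumoroids grown in this way hold epithelium without stroma, vessels or immune cells, so the response of those cells is outside the model. Apc is part of the complex that marks beta-catenin for destruction, and its loss leaves Wnt target genes switched on. Regorafenib is a multi-kinase inhibitor that acts on the VEGF, PDGF and FGF receptors, KIT, RET and the RAF kinases, and it is given in metastatic colorectal cancer. RAF passes signals from growth factor receptors to ERK, which induces immediate early genes and its own feedback inhibitors.

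The libraries differed in depth. The vehicle libraries held 15150071, 20095311 and 17655273 reads in F11, M3 and M14, and the R8 libraries held 7549951, 19308052 and 16245864 reads, as recovered from the values. A single read was therefore worth 2.65 CP20M in the F11 R8 library and less elsewhere. The 10 epithelial markers summed to between 122629 and 167636 CP20M with vehicle and to between 114468 and 157989 CP20M with R8. Of the 12 fibroblast markers, Col1a2, Lum, Thy1 and Dpt were at 0 in all 6 libraries and 7 stayed at 20 CP20M or less. Their sum ran from 359 to 1834 CP20M with vehicle and from 799 to 1332 CP20M with R8, nearly all of it Fbln2, and Col1a1 lay between 0 and 26 CP20M. The 7 endothelial markers summed to 169 to 285 and 163 to 321 CP20M, with Kdr and Emcn at 0 throughout. The 11 immune markers went from sums of 524 to 577 to sums of 854 to 1740 CP20M, but Cd3e, Cd3g and Adgre1 were at 0, 9 of the 11 stayed at 20 CP20M or less, and the sum was that of Csf1r and of Cd68, a protein of lysosomes. Apc read 4932, 4972 and 5211 CP20M with vehicle and 6032, 4748 and 5539 CP20M with R8 (log2 fold change 0.10, 95% interval of the limma fit −0.13 to 0.34). Reads were summed over all exons of Apc, so this level is no check of the deletion, which removes a part of it.

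With 8 µM regorafenib, matrix glycoproteins and lysosome genes were called higher in 50% and 54.2% of their tested members. Absorptive colonocyte genes and genes of ATF4 and the integrated stress response were called lower in 65% and 59.4%. Of the 10681 genes, 1756 (16.4%) passed an adjusted p of 0.05 with a change of at least 1.5-fold in limma with Benjamini-Hochberg adjustment. These were 959 higher genes (8.98%) and 797 lower genes (7.46%), and the median over all genes tested was −0.02 on the log2 scale. Fold changes were taken on log2(CP20M + 20) and so understate the change of genes with low values. Of the 1756 genes, 1729 moved in the same direction in 3 of 3 lines and 679 by more than 2-fold. The R8 and vehicle libraries did not overlap for 1512 of them, beside 3625 of all 10681 genes tested. The genes were called on these same libraries, so the shared direction and the lack of overlap follow in part from the call. They are not further support for it. The drug libraries alone brought 166 of the 959 higher genes into the comparison and the vehicle libraries alone 121 of the 797 lower genes, so these had to differ. The same holds for 11 of the 15 largest rises and 10 of the 15 largest falls. An annotated gene on the opposite strand overlaps 434 of the 1756, and the reads of such pairs may be shared. At the edge of the call lay Plekhg2 (0.59) and Yif1b (−0.59) inside and Fam50a and Znrf1 (both 0.58) outside. The number of genes called fell to 621 with the 6 Ve and R8 libraries alone, to 370 without M14 and to 1230 without M3. It was 2072 without F11, the line with the shallow R8 library.

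**Figure D1:**
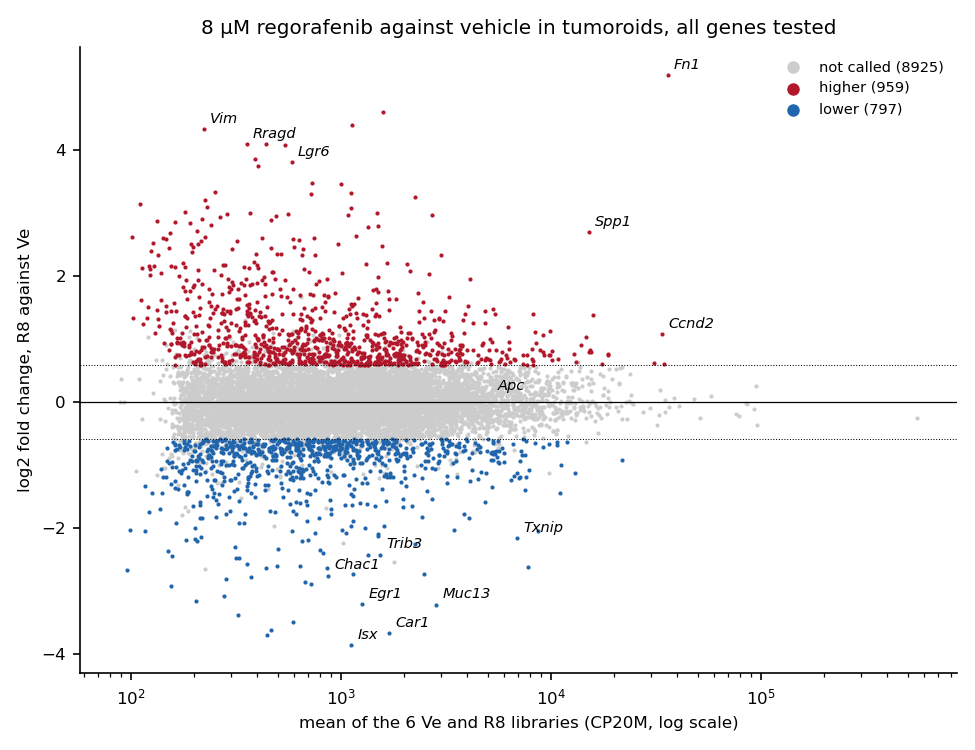
Each point is 1 of the 10681 genes tested, with the mean of the 6 Ve and R8 libraries in CP20M on a log axis and the log2 fold change of R8 against Ve on the vertical axis. The 959 genes called higher and 797 called lower are coloured, Fn1 stands at 5.18 and Isx at −3.85.

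The lines differed in how closely their changes followed each other. Over the 10681 genes the change in M3 correlated with that in M14 (Pearson r = 0.79, Spearman rho = 0.72), while F11 correlated with M3 at 0.36 and 0.34 and with M14 at 0.52 and 0.45. These are descriptions across genes, which are not independent replicates, and no 2 lines share a library. In F11 626 genes were higher and 924 lower with R8 by more than 2-fold, against 683 and 255 in M3 and 588 and 456 in M14, counted on the values alone. The median change of the genes called higher was 0.99, 0.95 and 0.96 in F11, M3 and M14, and that of the genes called lower was −0.97, −0.69 and −0.93.

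The largest rise was that of Fn1 (ENSMUSG00000026193, GRCm38 chr1:71585520-71653200, minus strand), which encodes the matrix glycoprotein fibronectin. It stood at 935, 1430 and 2802 CP20M with vehicle in F11, M3 and M14, and at 22870, 66208 and 121856 CP20M with R8. The lowest R8 library was far above the highest vehicle library, and the fitted rise was 5.18 on the log2 scale (SE 0.18, 95% interval 4.76 to 5.59, adjusted p = 1.87e-06), or 36.2-fold. Apol7d, annotated on the opposite strand within Fn1, rose by 4.60, and reads of such a pair cannot be told apart where the strand setting of the count is not stated. Vim (chr2:13573927-13582826, plus strand), the intermediate filament of mesenchymal cells, was at 6, 0 and 3 CP20M with vehicle and at 491, 364 and 474 CP20M with R8 (4.33, SE 0.29, adjusted p = 6.08e-05). Lamb1, the laminin beta 1 chain, was at 10, 34 and 40 CP20M with vehicle and at 554, 549 and 1469 CP20M with R8 (4.10, SE 0.47, adjusted p = 0.000574). Both Vim and Lamb1 were near the floor in every vehicle library and entered the comparison through the drug libraries.

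Several other genes were among the 15 largest rises, and of those named next only Dbn1, Tubb2b and Dkk2 reached 200 CP20M in a vehicle library. Kif1a, a kinesin motor, was at 28, 13 and 173 CP20M with vehicle and at 1754, 339 and 4479 CP20M with R8. Its rise of 4.40 (SE 0.43) held in every line, with M3 the lowest at both treatments. Dbn1 and Fscn1, which bind and bundle actin, rose by 3.47 and 3.33, and the tubulin Tubb2b, whose reads may be split with its close copy Tubb2a, rose by 3.31. The galectin Lgals1 rose by 3.74, the membrane protein Itm2a by 4.08 and Pxdn, a peroxidase that cross-links collagen IV, by 3.85. Lgr6, a receptor for R-spondins, read 23, 59 and 67 CP20M with vehicle and 501, 2147 and 708 CP20M with R8 (3.81, SE 0.33). Dkk2, a secreted modulator of Wnt signalling, read 18, 218 and 141 CP20M with vehicle and 268, 3497 and 1877 CP20M with R8 (3.46, SE 0.26), and F11 was the lowest line with either treatment.

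**Figure D2:**
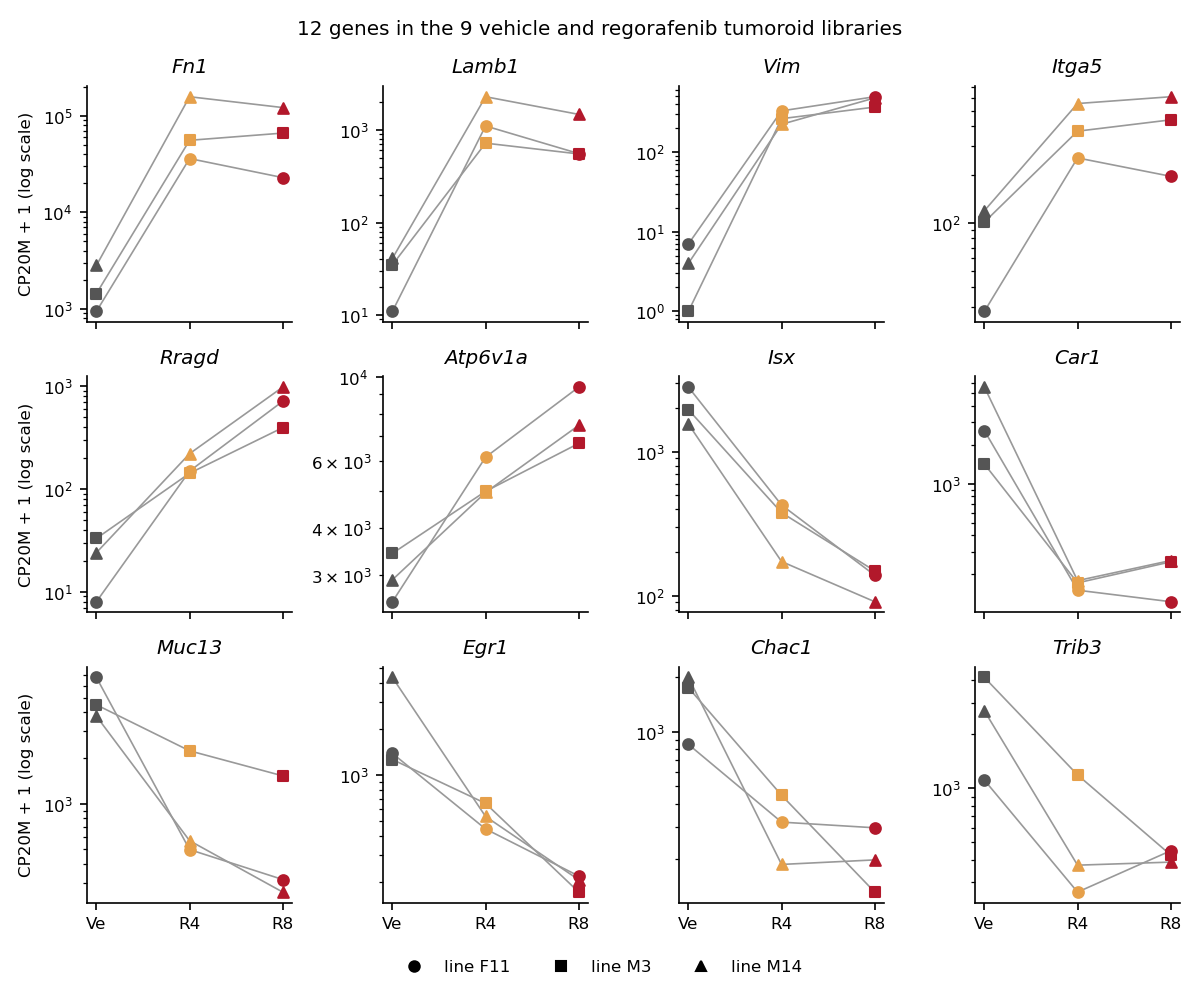
Values of 12 genes in the 9 tumoroid libraries with Ve, R4 or R8, as CP20M + 1 on a log axis, with a marker for each of the 3 lines. Fn1, Lamb1, Vim, Itga5, Rragd and Atp6v1a were higher in every R8 library than in any Ve library, and Isx, Car1, Muc13, Egr1, Chac1 and Trib3 were lower in every one. Lamb1, Vim, Itga5 and Rragd had entered through the R8 libraries alone and Isx through the Ve libraries alone, so these had to differ.

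Matrix glycoproteins rose in 11 of 22 tested members and none fell, with a median log2 fold change of 0.64 beside −0.02 over all genes tested; 24 further members of the list were below the filter. Fn1, Lamb1, Igfbp7, Thbs1, Spp1, Lama3 (2.34) and the basement membrane protein Fras1 (2.13) rose by more than 2 log2 units, and 3 of the 11 had entered through the drug libraries alone. The laminin chain Lamb3 rose by 0.96, while Lamc1 stood at 0.57, Hspg2 (perlecan) at 0.67 and Lama5 at 0.12 without being called. Without M14, 7 of the glycoproteins were called. Thbs1, thrombospondin 1, had values of 407, 632 and 574 CP20M with vehicle and of 1998, 5407 and 7296 CP20M with R8 (2.97, SE 0.36, adjusted p = 0.000769). Spp1, osteopontin, went from 1940, 1655 and 11662 CP20M to 9987, 25080 and 40630 CP20M (2.69, SE 0.35), and there the groups overlapped because M14 was already high with vehicle.

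Of 4 collagens above the filter, 3 rose (Col4a5 by 1.41, Col4a1 by 0.84 and Col4a2 by 0.67) and Col18a1 stood at 0.50, while 18 others, the fibrillar collagens among them, were below it. Of the collagens 0 were called without M3 and 1 without M14. Of 10 integrins, Itga5, Itgb8 (1.48) and Itgav (0.84) rose and 7 were not called, with a list median of 0.13 and 6 of 10 values above 0. Itga5, the alpha chain of the fibronectin receptor, was at 27, 100 and 118 CP20M with vehicle and at 194, 438 and 611 CP20M with R8 (2.10, SE 0.19, adjusted p = 0.000195), and entered through the drug libraries alone. Glypicans and syndecans rose in 5 of 6 members (Sdc3 2.86, Gpc1 1.32, Sdc2 0.90, Gpc4 0.71, Sdc1 0.60; median 0.81), and 2 of them were called without M14. Sdc3 and the protease inhibitor Serpine2 had also entered through the drug libraries alone. Of 18 matrix proteases and inhibitors, 5 rose and 1 fell. Bmp1, which trims procollagens, rose by 2.07, Serpine2 and the protease inhibitor Timp2 rose by 2.10 and 1.39, and the membrane-bound collagenase Mmp14 rose by 1.16. Adamts1 fell by 1.26. The shares called were 75% for the collagens, 30% for the integrins, 83.3% for the glypicans and syndecans and 33.3% for the proteases and inhibitors. Over all genes the share was 16.4%.

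The transcription factors that drive epithelial to mesenchymal transition were low in these libraries. Of 20 genes listed for that transition, 4 passed the filter and 3 of these rose (75%, beside 8.98% of all genes). The 3 were Fn1, Vim and Itga5, while Tcf4 stood at 0.38 and was not called. Vim and Itga5 passed through the drug libraries alone and so had to differ. Zeb1 read 3, 1 and 2 CP20M with vehicle and 24, 18 and 19 CP20M with R8. Twist1 read 3, 5 and 7 CP20M and 40, 18 and 28 CP20M in the same order. Zeb2 was at 0 with vehicle in each line and at 3, 13 and 17 CP20M with R8, and Snai1 did not exceed 6 CP20M in any library. Others of the list went either way. S100a4 read 111, 28 and 114 CP20M with vehicle and 46, 24 and 35 CP20M with R8. In the same order Cdh11 read 18, 9 and 8 CP20M and 0, 6 and 5 CP20M. Tagln read 135, 78 and 118 CP20M and 136, 108 and 121 CP20M, and Tnc 14, 5 and 17 CP20M and 38, 76 and 124 CP20M. These values lie below the 200 CP20M of the filter and were not tested.

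Of 31 epithelial junction and keratin genes tested, 5 fell (16.1%, beside 7.46% of all genes) and 1 rose (3.23%, beside 8.98%), with a median of −0.29. The keratin Krt23 fell by 2.88, and the claudins Cldn2 and Cldn7, occludin (Ocln) and desmoglein 2 (Dsg2) fell by 1.51, 0.79, 1.10 and 0.95, while plakoglobin (Jup) rose by 0.59. Cdh1, E-cadherin, was at 14160, 18101 and 21509 CP20M with vehicle and at 11998, 15378 and 15884 CP20M with R8 (−0.30, SE 0.10, adjusted p = 0.0405), a difference under the 1.5-fold limit. Epcam stood at −0.34 (SE 0.19, adjusted p = 0.208).

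Genes of the TGF-beta family and its targets were called in 6 of 20 members (30%, beside 16.4% of all genes). Their median was −0.02. The activin subunit Inhba rose by 1.73 from 275, 1363 and 1916 CP20M to 2067, 2231 and 6085 CP20M, the activin inhibitor Fstl3 by 1.89, and the ligands Tgfb3 and Tgfb1 by 1.68 and 0.95. The receptor Acvr1 rose by 0.74 and Smad4, the shared mediator, fell by 0.59. Among 30 genes of the fetal-like epithelium and of the co-activator YAP, 8 rose and 2 fell (33.3%, beside 16.4% of all genes). Their median was 0.29. Spp1, Tead2 (1.38), Amotl1 (1.30), Anxa5 (1.26), Basp1 (1.08), Clu (0.77), Gja1 (0.69) and Ctgf (0.62) rose, and Tead4 (−1.15) was among the falls. In F11 27 of these 30 had higher values with R8, against 15 in M3 and 16 in M14. Yap1 itself stood at 0.14 (adjusted p = 0.224).

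Secreted factors were called in 11 of 21 members (52.4%, beside 16.4% of all genes), 8 higher and 3 lower. Beside Spp1, the cytokine Il23a rose by 2.34, Igfbp3 by 1.72, the chemokine Ccl2 by 1.62 and Cxcl1 by 0.90. The values of Il23a were 4, 18 and 23 CP20M with vehicle and 19, 220 and 527 CP20M with R8, so that it stayed near the floor in F11. Il23a and Ccl2 passed the filter through the drug libraries alone. Endothelin 1 (Edn1), Cxcl5 and the interleukin Il18 fell by 1.66, 1.24 and 1.21.

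Genes of mature absorptive colonocytes fell in 13 of 20 tested members and none rose, with a median of −1.15 and medians of −1.59, −1.14 and −1.52 in F11, M3 and M14. Without M14, 5 of them were called. In 4 of the 13 the level had passed the filter through the vehicle libraries alone, and 19 listed genes were below it. In bulk libraries, fewer cells of a type and less RNA per cell cannot be told apart. The largest fall was that of Isx (ENSMUSG00000031621, chr8:74873173-74893506, plus strand), an intestinal homeobox factor, with 2814, 1959 and 1557 CP20M with vehicle and 138, 148 and 90 CP20M with R8 (−3.85, SE 0.17, adjusted p = 7.73e-06). Car1, a carbonic anhydrase of the colon surface, read 2577, 1422 and 5597 CP20M with vehicle and 122, 249 and 255 CP20M with R8 (−3.66, SE 0.33). For both genes all R8 libraries lay below all vehicle libraries. Isx had entered through the vehicle libraries alone and so had to differ. The mucosal glycoprotein Dmbt1 fell by 3.69, Plac8 by 3.48, the adhesion molecule Ceacam1 by 2.62 and the brush border protein Cdhr5 by 2.17.

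Cdx2, the homeobox factor that keeps intestinal identity, was at 3080, 1712 and 1221 CP20M with vehicle and at 999, 713 and 290 CP20M with R8 (−1.62, SE 0.21, adjusted p = 0.000996). The related Cdx1 read 909, 86 and 221 CP20M and then 0, 121 and 14 CP20M, higher in M3 and lower in the other two lines, and it was not called (adjusted p = 0.0660). Hnf4a, a nuclear receptor of the gut epithelium, stood at −1.04 (adjusted p = 0.0521). Klf4, which promotes exit from the cell cycle in differentiating cells, fell by 1.11, the sodium channel subunit Scnn1a by 1.18 and the sulphate transporter Slc26a2 by 1.12. Muc13, a membrane mucin of goblet cells and colonocytes, read 6781, 4480 and 3767 CP20M with vehicle and 316, 1525 and 261 CP20M with R8 (−3.21, SE 0.54). Gm15657, opposite to Muc13, fell by 3.07. The receptor of guanylin, Gucy2c, fell by 2.78 and the sodium/proton exchanger Slc9a4 by 3.15. Keratins and a cornified envelope gene were also among the 15 largest falls, with Krt90 at −3.61, Krt34 at −3.38 and Lor at −2.81.

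Secretory lineages were scarcely represented. Of 25 goblet cell genes 5 were tested, and Muc13 and Sytl2 (−1.07) fell (40%, beside 7.46% of all genes). Sytl2 had entered through the vehicle libraries alone. The secreted mucin Muc2 read 41, 1 and 10 CP20M with vehicle and 3, 9 and 8 CP20M with R8, below the filter. Of 20 enteroendocrine genes Cpe alone was tested. This carboxypeptidase of prohormone processing rose from 209, 124 and 306 CP20M to 2099, 997 and 3007 CP20M (3.08, SE 0.16, adjusted p = 1.23e-05), while the granule protein Chga stayed at or under 31 CP20M. Of 3 tuft cell genes tested, Cd24a rose by 0.61 and Avil fell by 1.74 (66.7% called, beside 16.4% of all genes). Other tuft cell genes were below the filter and not tested. Dclk1 read 18, 3 and 12 CP20M with vehicle and 93, 327 and 127 CP20M with R8. Sh2d6 read 2, 15 and 22 CP20M and then 3, 3 and 0 CP20M, lower in M3 and M14.

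Stem cell genes were called in 7 of 23 members (30.4%, beside 16.4% of all genes), 2 higher and 5 lower, with a median of −0.39. Tnfrsf19 rose by 1.55 and the RNA-binding protein Mex3a by 0.89, and Plce1 (−1.10), Myc (−0.84), Hopx (−0.84), Ephb2 (−0.71) and Bmi1 (−0.63) fell. Lgr5, the R-spondin receptor of crypt base cells, read 2720, 483 and 796 CP20M with vehicle and 114, 374 and 633 CP20M with R8. The value was lower in each line, by far the most in F11, and the mean of −1.68 had an SE of 0.71 (adjusted p = 0.108). Ascl2 was lower in F11 and M14 and higher in M3 (−1.67, adjusted p = 0.0669). Over the stem cell list the median change was −0.56 in F11, 0.19 in M3 and −0.30 in M14. Of 16 Wnt target and feedback genes, Dkk2 and Tnfrsf19 rose and Myc and Ephb2 fell (25% called). Axin2, a target that reports beta-catenin activity, was at 5552, 9312 and 7610 CP20M with vehicle and at 4700, 10312 and 6391 CP20M with R8 (−0.11, 95% interval −0.37 to 0.14, adjusted p = 0.483).

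Lysosome genes rose in 26 of 48 tested members and none fell, 1 of the 26 having entered through the drug libraries alone. Their median log2 fold change was 0.63, with 0.61 in F11, 0.48 in M3 and 0.83 in M14, and 45 of the 48 had a positive value. The summed level of the list went from 81046, 105382 and 99194 CP20M with vehicle to 146371, 152754 and 172691 CP20M with R8. The list holds lysosomal enzymes, membrane proteins, subunits of the proton pump and regulators, and many of its members are known targets of the transcription factors Tfeb and Tfe3. Without M14 7 members were called and with the 6 Ve and R8 libraries alone 14.

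The largest rise in the list was that of Rragd (ENSMUSG00000028278, chr4:32983037-33022180, plus strand), a small GTPase that brings mTORC1 to the lysosome. It was at 7, 32 and 23 CP20M with vehicle, at 148, 141 and 219 CP20M with R4 and at 710, 393 and 976 CP20M with R8 (4.09, 95% interval 3.27 to 4.91, adjusted p = 0.000197). Atp6v1a, the catalytic subunit of the proton pump, read 2547, 3418 and 2911 CP20M with vehicle and 9399, 6673 and 7447 CP20M with R8 (1.40, SE 0.16, adjusted p = 0.00055). For each of these genes the 3 R8 libraries lay above all vehicle libraries. Rragd had entered through the drug libraries alone and so had to differ. The pump subunits Atp6v0d1, Atp6v1d, Atp6v1c1 and Atp6v1h rose by 0.90, 0.85, 0.73 and 0.62. The proteases Ctsl, Ctsd and Tpp1 rose by 1.19, 1.03 and 1.02, the glycosidases Manba and Hexa by 1.17 and 1.13, the cholesterol carrier Npc2 by 1.14 and the lipase Lipa by 1.01. Lamp1 and Lamp2, of the lysosomal membrane, rose by 0.82 and 0.71. Cd68, a lysosomal membrane protein that is also an immune marker, rose from 100, 171 and 134 CP20M to 350, 997 and 1219 CP20M (2.35). It had entered through the drug libraries alone. Tfeb stood at −0.69 (adjusted p = 0.0969) and Tfe3 at −0.42 (adjusted p = 0.0182), neither called, and Mcoln1, the lysosomal calcium channel, at 0.38 (adjusted p = 0.0554).

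The promoters of the lysosome genes were searched for TCACGTG, the core of the element that Tfeb and Tfe3 bind, on both strands. A promoter window was the 250 bases before and 50 bases after a transcription start of RefSeq, build GRCm38.p6, and 37 of the 48 lysosome genes had one. The letters were found in 14 of these (37.8%), in 602 of 7913 genes tested that had a window (7.61%) and in 3.77% of all 32851 windows. Of the lysosome genes called higher 7 of 21 (33.3%) held them and of those not called 7 of 16 (43.8%). Over all genes the share was 8.32% of 709 genes called higher and 6.92% of 578 called lower. A match is a description of these letters and not a binding site. The following 60-base stretches, read along the gene's strand from RefSeq, show the match in 5 of the called genes, with the matching letters of either strand in capitals. A run of TCACGTGA is an overlapping pair of matches, one on each strand.
Atp6v1a, chr16:44139359-44139418, minus strand: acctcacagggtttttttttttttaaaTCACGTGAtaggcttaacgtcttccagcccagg
Ctsd, chr7:142388018-142388077, minus strand: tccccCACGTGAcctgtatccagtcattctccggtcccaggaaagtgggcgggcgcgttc
Lamp1, chr8:13159072-13159131, plus strand: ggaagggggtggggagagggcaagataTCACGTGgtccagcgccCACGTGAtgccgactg
Ctsa, chr2:164833713-164833772, plus strand: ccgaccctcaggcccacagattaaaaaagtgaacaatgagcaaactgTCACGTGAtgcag
Gla, chrX:134601196-134601255, minus strand: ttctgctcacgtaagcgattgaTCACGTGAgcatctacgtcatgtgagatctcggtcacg
The match begins 132 bases before the start in Atp6v1a, 245 in Ctsd, 62 in Lamp1, 13 in Ctsa and 228 in Gla.

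Of 41 autophagy genes tested, 2 rose (4.88%, beside 8.98% of all genes) and 5 fell (12.2%, beside 7.46%), and the median was 0.02. Gramd1a (chr7:31130127-31155896, minus strand), which carries cholesterol between membranes and takes part in autophagosome formation, was at 110, 227 and 370 CP20M with vehicle and at 652, 1222 and 1928 CP20M with R8 (2.34, SE 0.13, adjusted p = 1.42e-05). All R8 libraries lay above all vehicle libraries, and the line with the highest vehicle value also had the highest R8 value. Gabarap, which is attached to autophagosome membranes, rose by 0.66, while Map1lc3b of the same family stood at −0.44 (adjusted p = 0.0300). Atg2a, Wdr45, Atg13, Atg101 and Atg9b, of the initiation and lipid transfer steps, fell by 0.83, 0.67, 0.65, 0.64 and 0.59. The receptor Sqstm1 stood at 0.03 and the kinase Ulk1 at 0.02.

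**Figure D3:**
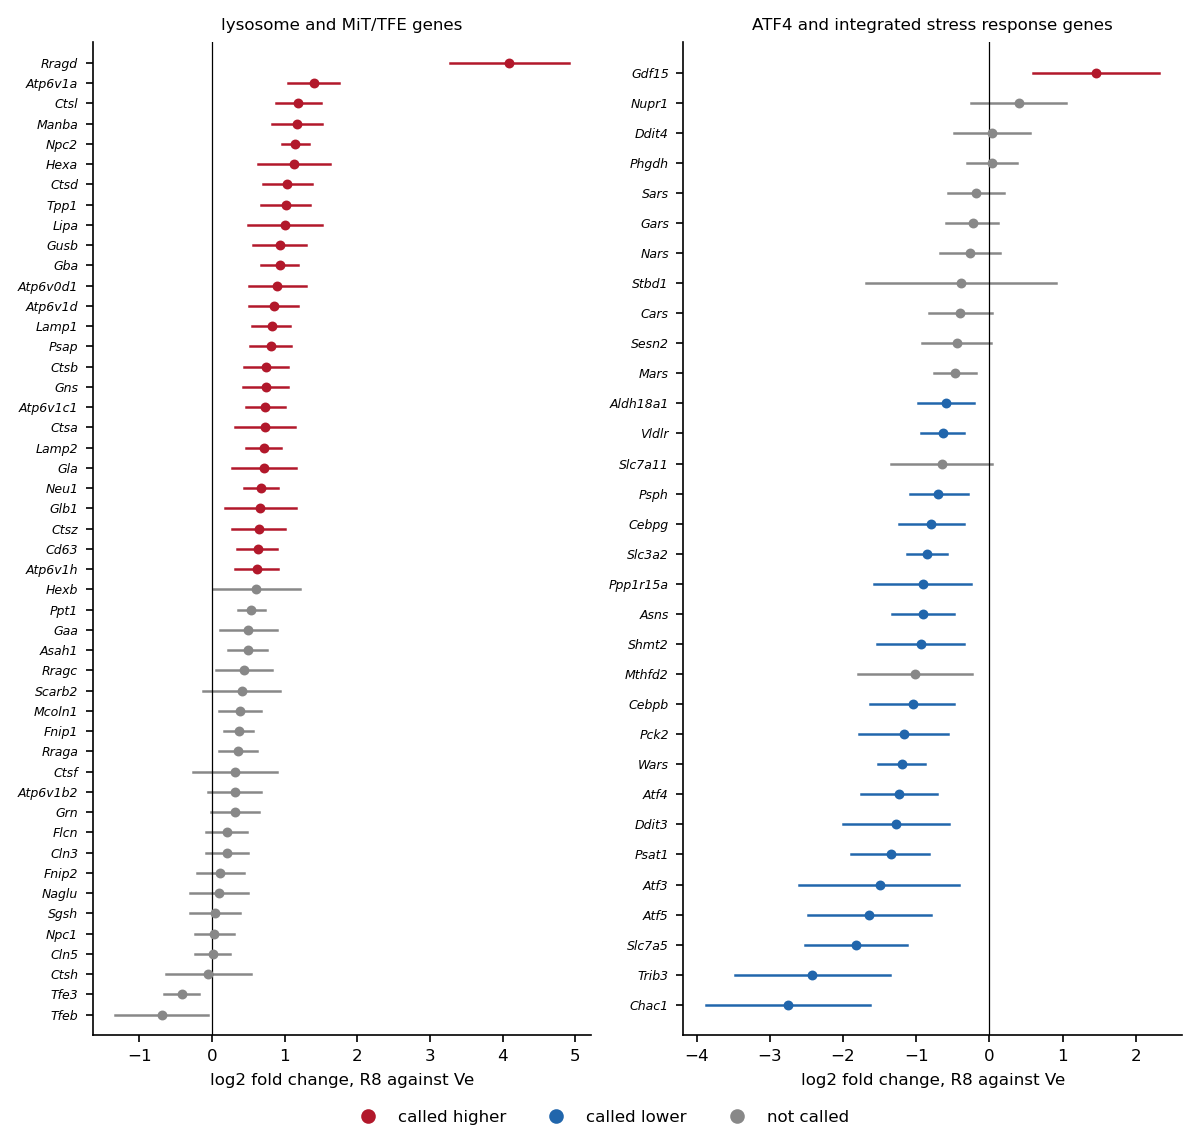
Log2 fold change of R8 against Ve with its 95% interval for each tested member of the lysosome list and of the ATF4 list, coloured by call. Of the 48 lysosome genes 26 were called higher and none lower, and of the 32 ATF4 genes 19 were called lower and Gdf15 higher.

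ATF4 is the transcription factor of the integrated stress response. Of 32 tested genes of ATF4 and this response, Atf4 itself among them, 19 fell and 1 rose, with a median of −0.82. Of the 19 falls, 1 had entered through the vehicle libraries alone. Line medians were −0.33 in F11 and −0.86 in M14, while in M3 the median value fell by 1.00. The summed level went from 108648, 166538 and 154919 CP20M with vehicle to 95701, 89932 and 102961 CP20M with R8, so F11 started lowest and fell least. Without M14 3 of the 19 falls were called and without M3 11. Chac1, which degrades glutathione, read 851, 1748 and 1989 CP20M with vehicle and 295, 130 and 196 CP20M with R8 (−2.75, SE 0.50, adjusted p = 0.00438). Trib3, a pseudokinase that feeds back on ATF4, read 1111, 4156 and 2706 CP20M with vehicle and 448, 424 and 387 CP20M with R8 (−2.42, SE 0.47, adjusted p = 0.00587). The drug libraries of these genes lay below all vehicle libraries, and for Trib3 the lines lay closer together with R8 than with vehicle.

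The fall took in transcription factors, transporters and enzymes of amino acid supply. Atf4 itself went from 6503, 10496 and 10285 CP20M to 4557, 3154 and 3691 CP20M (−1.24, SE 0.23, adjusted p = 0.00514), Atf5 fell by 1.64, Atf3 by 1.50 and Ddit3, a factor of stress-induced death, by 1.28. The amino acid transporter Slc7a5 fell by 1.83, and Psat1 of serine synthesis, Asns of asparagine synthesis and mitochondrial Pck2 fell by 1.35, 0.91 and 1.17. Phgdh, the first enzyme of serine synthesis, stood at 0.03. Gdf15, a stress cytokine that also stands in the p53 list, rose from 774, 4838 and 3568 CP20M to 5060, 6528 and 8507 CP20M (1.45, SE 0.39, adjusted p = 0.0219). The same list had a median of −0.68 with R4 and of −1.08 with 5-FU, both against the same vehicle libraries, and of −0.19 in colonoids with R8.

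The ATF4 list was searched in the same way for TGATGNAA, the core of the element that ATF4 and C/EBP proteins share. It was found in 9 of 27 members with a window (33.3%), in 6 of 17 called lower (35.3%) and in 3 of 10 others (30%). The share was 2.53% of the 7913 genes tested, 4.5% of all genes called lower, 2.4% of those called higher and 3.97% of all windows. The 5 stretches below come from genes that fell and have the match on either strand in capitals.
Chac1, chr2:119351023-119351082, plus strand: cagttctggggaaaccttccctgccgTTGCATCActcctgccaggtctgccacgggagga
Atf3, chr1:191183410-191183469, minus strand: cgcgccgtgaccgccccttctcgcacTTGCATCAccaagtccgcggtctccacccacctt
Pck2, chr14:55540137-55540196, plus strand: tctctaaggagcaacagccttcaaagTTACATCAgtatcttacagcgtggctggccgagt
Asns, chr6:7693210-7693269, minus strand: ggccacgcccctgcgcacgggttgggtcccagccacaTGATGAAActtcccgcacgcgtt
Vldlr, chr19:27216794-27216853, plus strand: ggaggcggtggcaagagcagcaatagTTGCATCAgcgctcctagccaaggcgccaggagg
These genes had log2 fold changes of −2.75, −1.50, −1.17, −0.91 and −0.64 in the order shown.

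ERK feedback and target genes went both ways. Of 33 tested, 12 fell (36.4%, beside 7.46% of all genes) and 6 rose (18.2%, beside 8.98%), with a median of 0.00. Without M3 5 falls were called and without M14 3. Egr1, an immediate early transcription factor, read 1387, 1265 and 4354 CP20M with vehicle, 444, 653 and 536 CP20M with R4 and 218, 171 and 206 CP20M with R8 (−3.20, SE 0.34, adjusted p = 0.000389). Fos fell by 1.64, Ier5 by 1.38, the phosphatase Dusp5 by 1.40 and Myc by 0.84. Against these, the feedback inhibitors Spred3, Spry4 and Spry1 rose by 1.46, 0.98 and 0.63 and the ETS factors Etv4 and Etv5 by 1.00 and 0.71. Spred3 went from 138, 186 and 279 CP20M to 514, 461 and 776 CP20M, without overlap. The phosphatase Dusp6 was lower in each line without being called (−0.53, SE 0.19, adjusted p = 0.0642), and Spry2 stood at 0.00 (95% interval −0.32 to 0.32). Fosb, below the filter, read 36, 23 and 78 CP20M with vehicle and 99, 113 and 113 CP20M with R8.

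Of 20 kinases that regorafenib inhibits, 9 passed the filter, 1 rose and 3 fell (44.4% of the 9, beside 16.4% of all genes). Flt4, the receptor VEGFR3, was at 12, 37 and 27 CP20M with vehicle and at 146, 238 and 419 CP20M with R8 (2.59, SE 0.33, adjusted p = 0.000938), and entered through the drug libraries alone. Fgfr4 fell by 1.91 from 800, 478 and 260 CP20M to 85, 303 and 44 CP20M, Fgfr2 by 1.03 and Epha2 by 1.00. Fgfr2 has an annotated transcript that spans Dmbt1 on the other strand. Braf stood at 0.30 and Araf at 0.10, neither called. Kit, Ret and Fgfr1 did not exceed 22 CP20M in any of the 6 libraries.

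Ligands of the inhibited receptors rose in 5 of 10 tested members and 2 fell (70% called, beside 16.4% of all genes). Their median was 0.47. Of these calls, 1 rise had entered through the drug libraries alone and 1 fall through the vehicle libraries alone. Fgf2 was at 140, 138 and 388 CP20M with vehicle and at 340, 1686 and 3102 CP20M with R8 (2.51, SE 0.42), where F11 with R8 lay below M14 with vehicle. Pdgfc and Pdgfb rose by 1.94 and 1.33, Pdgfd by 0.71 and the CSF1 receptor ligand Csf1 by 1.27. Vegfa fell by 0.66 and Fgf13 by 0.81. In the EGF receptor family 4 of 12 members fell (33.3%, beside 7.46% of all genes) and none rose, with a median of −0.75. Of the 4 falls, 1 had entered through the vehicle libraries alone. Erbb2 fell by 1.33 from 3490, 2205 and 3154 CP20M to 880, 1403 and 1195 CP20M, Erbb3 by 0.88, the inhibitor Errfi1 by 1.58 and Lrig3 by 1.51. The ligand Btc stood at −1.13 (adjusted p = 0.0515).

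Metabolic genes were also measured. Txnip, a glucose-responsive inhibitor of glucose uptake, read 10880, 10508 and 12548 CP20M with vehicle, 4223, 5907 and 4626 CP20M with R4 and 2528, 2514 and 2475 CP20M with R8 (−2.16, SE 0.15, adjusted p = 7.49e-05), and its paralog Arrdc4 fell by 1.49. Gm15441 lies opposite Txnip and is not separable from it here. Of 33 hypoxia and glycolysis genes, 4 rose and 6 fell (30.3%, beside 16.4% of all genes), with a median of −0.18. The hypoxia-inducible carbonic anhydrase Car9 fell by 2.08 and the muscle-type phosphofructokinase Pfkm rose by 1.43, while its liver form Pfkl fell by 0.78. The shares called of the next lists, 16% for cholesterol, 17.4% for NRF2 and 7.14% for drug transporters, were near or under the 16.4% of all genes. Of 25 cholesterol genes 3 rose (Acat2 1.02, Hsd17b7 0.64, Sc5d 0.62) and Srebf2 fell by 0.61, with a median of 0.10. Of 23 NRF2 target genes 4 rose (Nqo1 1.95, Ptgr1 1.27, Me1 1.01, Ftl1 0.80), with a median of 0.20. Of 14 drug transporters and xenobiotic enzymes Nqo1 was the single call. Of 12 interferon-stimulated genes (33.3% called) Bst2 rose by 1.02 and B2m, of antigen presentation, by 1.01. Oasl1 (−2.03) and Irf1 (−0.87) fell, 1 of them having entered through the vehicle libraries alone. Of 7 mitochondrially encoded genes mt-Nd6 was called (−1.63), which overlaps mt-Nd5 on the opposite strand. The list median was −0.61, and the line medians were −1.29 in F11, where 7 of 7 were lower in the shallow R8 library, −0.32 in M3 and −0.10 in M14. The part of library quality in these values was not tested.

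**Figure D4:**
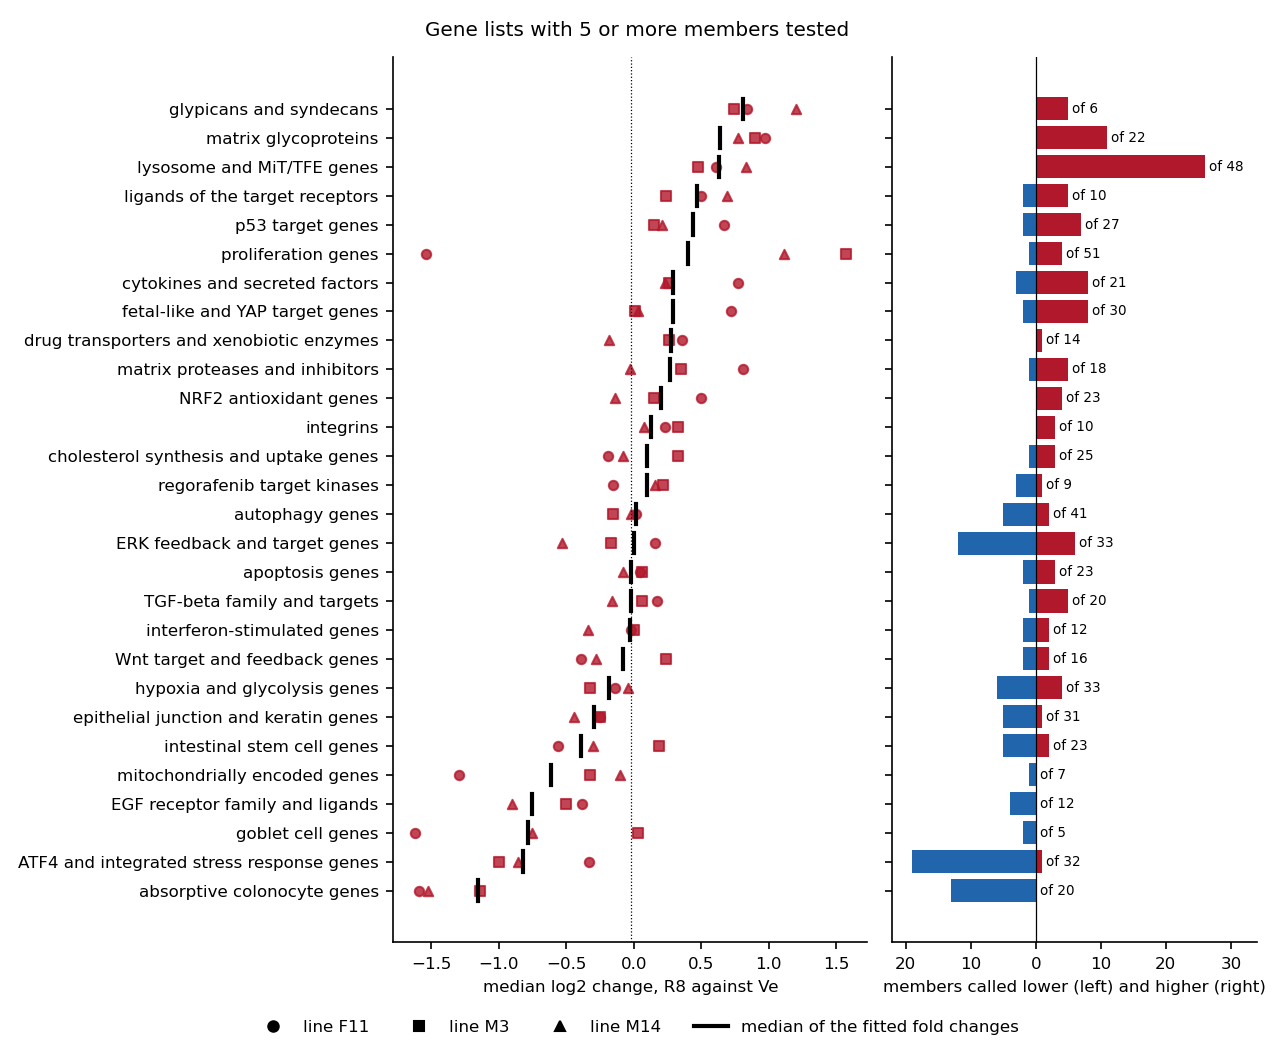
For each gene list with 5 or more members tested, the median log2 change of R8 against Ve in each line (markers) with the median of the fitted fold changes (bar), and the number of members called higher and lower. The lysosome list lies above 0 and the absorptive colonocyte and ATF4 lists below 0 in all 3 lines, while the proliferation list lies at −1.54 in F11, 1.57 in M3 and 1.11 in M14.

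Proliferation genes moved in opposite directions in the lines. Of 51 tested, 45 were lower with R8 in F11, while 47 were higher in M3 and 47 in M14, with median changes of −1.54, 1.57 and 1.11. The lines differed before treatment. Mki67, a marker of cycling cells, read 11896, 242 and 567 CP20M with vehicle, 2896, 1177 and 1680 CP20M with R4, and 1473, 2533 and 1410 CP20M with R8. Top2a read 11042, 492 and 692 CP20M with vehicle and 1955, 2543 and 1619 CP20M with R8, and Ccnb1 read 2445, 67 and 96 CP20M and 665, 547 and 461 CP20M. With R8 the 3 lines thus lay closer together than with vehicle. Neither Mki67 (0.52, SE 0.96, adjusted p = 0.715) nor Top2a (0.35, SE 0.76) was called. The list median of 0.40 became −0.21 without M3. Of the list 4 genes rose and 1 fell, 9.8% beside 16.4% of all genes, so the calls are not a result about the list. The cyclins Ccnd2, Ccnd3 and Ccne1 rose by 1.08, 0.90 and 0.89 and E2f1 by 1.43, the last with a lower value in F11, while Tyms, the target of 5-FU, fell by 1.05. Ccnd2 read 23442, 20058 and 20757 CP20M with vehicle and 62245, 38946 and 37798 CP20M with R8, the same direction in all lines.

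Of 27 p53 target and cell cycle inhibitor genes, 7 rose (25.9%, beside 8.98% of all genes) and 2 fell (7.41%, beside 7.46%). Their median was 0.44. Cdkn2a, which encodes p16 and p19Arf, was at 1140, 998 and 1497 CP20M with vehicle and at 4144, 2935 and 3984 CP20M with R8 (1.59, SE 0.19, adjusted p = 0.000597), without overlap. Cdkn1b (p27) fell by 1.02. Cdkn1a (p21) stood at 0.15 and Mdm2 at 0.44, neither called. Among 23 apoptosis genes, 3 rose and 2 fell, 21.7% beside 16.4% over all genes, with a median of −0.02. The inhibitor Bcl2 rose by 1.32, the death promoter Bid by 0.62 and the caspase Casp6 by 0.60, and the death promoters Bbc3 and Bcl2l11 fell by 0.92 and 0.88.

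Of 20 genes that the study itself names for regorafenib, 16 were above the filter, 8 rose and 3 fell (68.8% called, beside 16.4% of all genes). Most were chosen on these samples, while Spp1, Cxcl1 and Tnfrsf11b were named with secreted proteins of tumoroids treated with R4. The study measured Ptk7, Mex3a and Yap1 by qRT-PCR of tumoroids, also with R4. With the study's choice known, the direction of the 20 genes is not independent evidence. Fn1, Thbs1, Spp1, Gramd1a, Bmp1, Gpc1, Cxcl1 and Mex3a rose and Il18, Plce1 and Myc fell. Il18, an epithelial interleukin, went from 826, 699 and 1291 CP20M to 411, 325 and 412 CP20M. Tnfrsf11b, the decoy receptor osteoprotegerin, was at 1583, 4674 and 8661 CP20M with vehicle and at 4420, 13026 and 9214 CP20M with R4. It was thus higher in every line with R4, the dose of the study's qRT-PCR and protein assays. With R8 it read 2713, 6275 and 3595 CP20M, higher than with vehicle in F11 and M3 and lower in M14 (−0.02, SE 0.34). This R8 change stood at 0.60 without M14. Ascl2, Tiam1 (−0.72), Yap1 and Ptk7 (0.23) were not called with R8. For Yap1 and Ptk7 the dose and the assay differ from the study's, so the rise it reports was not tested here. The study reported lower Ascl2 and Tiam1 in colonoids and tumoroids, whereas these values are of tumoroids alone. Muc2, Chga, Aqp4 and Inha were below the filter. Aqp4, a water channel, read 1412, 76 and 176 CP20M with vehicle and 0, 7 and 12 CP20M with R8, and passed 200 CP20M in F11 alone.

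The doses were compared directly in the same lines. Between R8 and R4, 29 of the 10681 genes (0.272%) were called in limma, 8 higher (0.0749%) and 21 lower (0.197%), and 1864 (17.5%) had an unadjusted p under 0.05. The number called does not show how many genes differ between the doses. The smallest adjusted p was that of Egfr (chr11:16752203-16918158, plus strand), the EGF receptor. It read 1529, 1893 and 3146 CP20M with vehicle, 2545, 3311 and 4973 CP20M with R4 and 1187, 1473 and 1964 CP20M with R8, a difference of −1.19 between the doses (SE 0.12, adjusted p = 0.0269). Egfr was thus higher with R4 and lower with R8 than with vehicle in every line. Mnt, a repressor that pairs with the partner of Myc, differed by −0.78 between the doses, with 1101, 1906 and 1745 CP20M with R4 and 684, 1056 and 969 CP20M with R8. The integrin Itgb4, of hemidesmosomes, differed by −0.94, as did its opposite-strand neighbour B230344G16Rik (−0.95). Bdh1, an enzyme of ketone bodies, was at 1186, 1099 and 1035 CP20M with R4 and at 2030, 2272 and 1899 CP20M with R8 (0.89, adjusted p = 0.0336). The values of the doses did not overlap for Bdh1.

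Of the other genes called between the doses, chosen after their values were seen, Itga2 (−1.57) and the Notch ligand Jag1 (−1.10) were lower with R8 than with R4, and so was Ocln (−0.82). Isx and Txnip, at −2.67 and −1.21 with R4 against vehicle, were lower again with R8 (−1.18 and −0.95). Sord, of the polyol pathway, was higher with R8 (1.65). The number called was 9 without F11 and 0 without M3 or without M14. With R4 against the same vehicle libraries, the matrix glycoprotein list had a median of 0.87, the lysosome list 0.53 and the absorptive list −1.39, and with R8 0.64, 0.63 and −1.15. With 5-FU, again against these vehicle libraries, the medians were 0.72, 0.11 and 0.03.

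**Figure D5:**
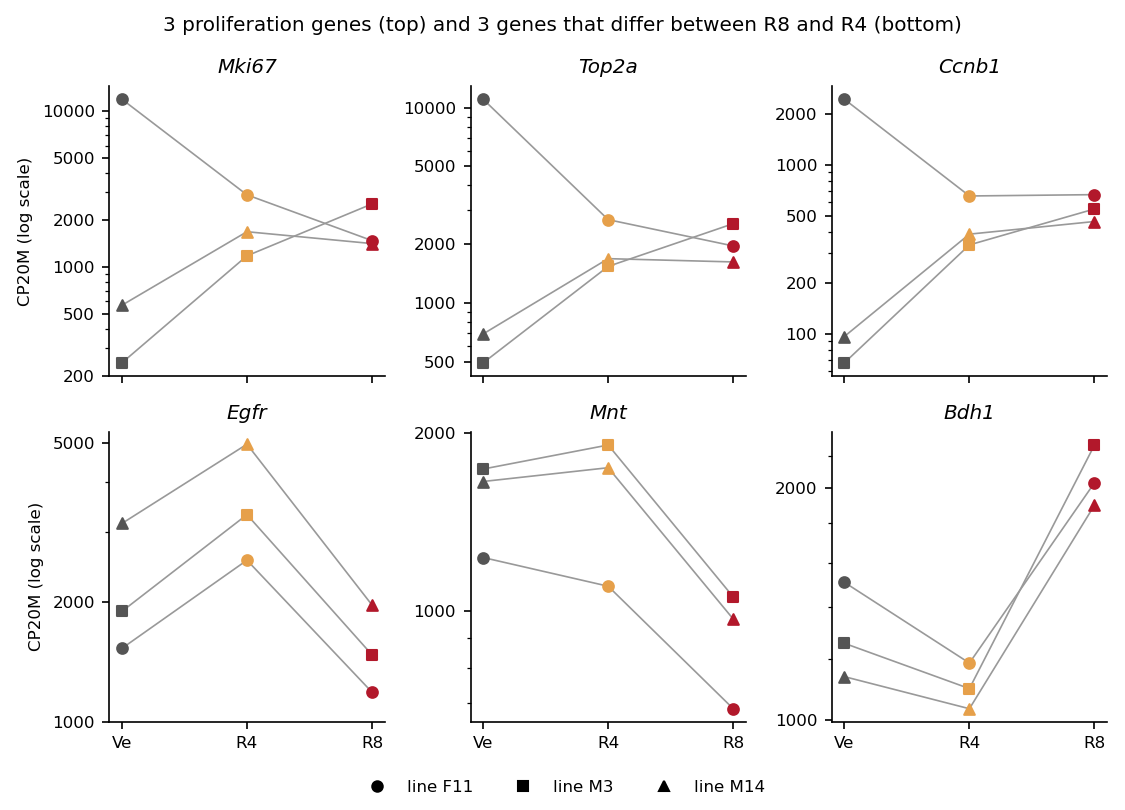
CP20M on a log axis in the Ve, R4 and R8 libraries of each line for 3 proliferation genes (top) and 3 genes that differ between the doses (bottom). Mki67 goes in F11 from 11896 to 1473 and is higher in M3 and M14 with R8 than with Ve, and Egfr is highest with R4 in every line.

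The response was also set beside that of the 3 colonoid lines with wild-type Apc. No gene of the 10681 (0%) was called in the test of the difference between the genotypes in limma, where 757 genes had an unadjusted p under 0.05, and edgeR on the recovered reads called 0 with 770 under 0.05. This does not show that the genotypes respond alike. Among the colonoid libraries of this test, M41 with vehicle held 6590345 reads and M1 with R8 4371837, fewer than F11 with R8. Over all genes tested 8307 (77.8%) had the same sign in colonoids, and 926 of the 959 genes called higher in tumoroids were positive there and 766 of the 797 called lower were negative. Cpe rose by 3.08 in tumoroids and stood at 1.83 in colonoids, a difference of 1.25 (95% interval 0.82 to 1.68). Enah, which extends actin filaments, stood at 1.79 in tumoroids and 3.83 in colonoids (difference −2.04, 95% interval −2.71 to −1.36). Gabrp, a GABA receptor subunit, fell by 2.12 in tumoroids, where R8 left 499, 777 and 350 CP20M, and stood at −4.48 in colonoids, where it left 36, 35 and 183 CP20M (difference 2.36, 95% interval 1.49 to 3.23). Hoxa13, a homeobox gene of the hindgut, read 1474, 1059 and 1703 CP20M with vehicle and 1407, 1431 and 1417 CP20M with R8 in tumoroids. In the colonoid lines M41, M40 and M1 it read 1230, 1562 and 1312 CP20M and then 365, 445 and 563 CP20M, and the difference was 1.59 (95% interval 1.00 to 2.17). The pseudogene Mgam2-ps fell by 1.83 in tumoroids and stood at 0.13 in colonoids (difference −1.96, 95% interval −2.62 to −1.29). These 5 genes had the smallest p of the genotype test, and the adjusted p of each was 0.439.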

How the data were processed

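The deposited table gives for each gene a signal, CP20M, in every library. For it the authors trimmed paired-end reads with Trimmomatic 0.36, aligned them to GRCm38 with STAR 2.5.3a, counted them per Ensembl gene with HTSeq 0.9.1 and scaled each library to 20000000 reads, rounding up. Figure legends of the study describe CP20M as per kilobase, but genes of every length shared the same step in a library, so the values were read as scaled reads not corrected for length. Sources differ on the library kit, and the strand setting is not given in the sources used here. Read numbers were recovered from the steps between values (99.8% to 100% of values were whole multiples, to about 1 read) and gave 7549951 to 22370021 reads per tumoroid library.

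R8 and Ve were compared in R 4.3.3 by limma 3.58.1 (lmFit, eBayes with trend) on log2(CP20M + 20) over the 12 tumoroid libraries, with the line as a block and Benjamini-Hochberg adjustment over 10681 genes. The genotype test used the 12 Ve and R8 libraries of both genotypes. The lines pair the libraries because each comes from 1 mouse, and deviations from the treatment means correlated at 0.24 to 0.89 within a line and −0.66 to 0.09 between lines. The fit was tested on simulated data with 200 changed genes. Alternatives were no block, all 24 organoid libraries, the 6 libraries alone, pseudocounts of 5 and 100, other filters, median-ratio scaling, a threshold of 0.001, edgeR 4.0.16 on recovered reads, and leaving out each line. The 5-FU tumoroid libraries, titled colonoid, were placed by their genotype label.

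Genes named were the 15 largest rises and falls among called genes that moved alike in 3 of 3 lines, up to 4 called members of each list, the genes the study names, the 5 smallest p of each further comparison, cell type markers, Apc, and uncalled list members by their values. Further called members were named after their values were seen. The comparison, the 38 lists and the motifs were chosen with earlier results of these data known, and no list was given a test of its own. A few members of the lists are not reported here by name. Positions are those of GENCODE M21.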

Additional observations from a re-analysis of the deposited data

How the results depend on the processing

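With the line as a replicate block over the 12 tumoroid libraries 1756 genes were called between R8 and Ve. There were 1119 without the replicate block, 621 with the block over the 6 libraries alone, and 231 (170 higher, 61 lower) at an adjusted p of 0.001. Leaving out each line gave 370 to 2072. The other alternatives gave 1230 to 2175, and edgeR shared 1718 of its 1823 calls with limma. Of 133 named genes that were called, 50 were called under every alternative and 67 without M14. Between R8 and R4, 29 genes were called (27.6% of them higher). There were 0 without the replicate block, 8 with all 24 organoid libraries, 8 with no filter on low values, 57 with median-ratio scaling (15.8% higher), 44 with edgeR (8 higher, 36 lower) and 0 to 9 when a line was left out. The difference between genotypes was called in no gene under any alternative run. The 24 organoid libraries include the colonoid R4 library of M41, which held 512600 reads.

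The direction turned in these cases, and the cause was not tested. The proliferation median ran from −0.21 without M3 to 1.30 without F11. The target kinase median was −0.16 with 200 CP20M required in 3 of 6 libraries. The fibroblast marker value, which is that of Fbln2, was −0.12 in edgeR and ran from −0.72 without F11 to 0.66 without M14. Leaving out a line moved Hoxa13 between −0.16 (without M3) and 0.18, and Tnfrsf11b between −0.42 and 0.60 (without M14). With 3 lines, a shallow F11 R8 library, shallow colonoid libraries in the genotype test and 6 residual degrees of freedom between R8 and Ve, a change that is not called is not shown to be absent.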

Other observations

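The level of Xist, the RNA that coats the inactive X chromosome, differed between treatments in the female line F11, at 22231 CP20M with vehicle, 6859 with R4, 3921 with R8 and 11984 with 5-FU. In M3 and M14 it was at 2 CP20M or less in each library. The 289 X-linked genes tested had a median change between R8 and vehicle of 0.01 in F11, 0.07 in M3 and 0.14 in M14, beside −0.06, 0.03 and 0.00 over 10350 autosomal genes. There is 1 library per treatment in F11, so these values have no replicate.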
